A study of Arabidopsis thaliana with 12 samples.

Results

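The cytosolic chaperone machinery of Arabidopsis thaliana was followed through 9 genes, taken by name from the 33208 features of the deposited gene table. They encode the disaggregase HSP101, the HSP90 proteins HSP90.1, HSP90.2 and HSP90.3, the HSP70 proteins HSP70, HSC70-1 and HSC70-3, and the co-chaperones FES1A and HOP3. All 9 had enough reads to be tested, among 18212 tested genes.

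The RNA came from rosettes of 3-week-old wild-type and med25-1 plants, the latter carrying a mutant allele of MED25, a subunit of the Mediator complex that connects transcription factors with RNA polymerase II. All plants were grown on plates with 0.5% sucrose, and the treated plants were held at 1% oxygen for 3 h. The 4 groups were wild type under control conditions, wild type under hypoxia, med25-1 under control conditions and med25-1 under hypoxia, with 3 biological replicates in each and 12 libraries in all. One mutant allele was profiled and no complemented line was among the samples used here. The p-values rest on the spread between replicates, estimated for each gene over all 4 groups together. A wild-type comparison therefore also carries the spread of the med25-1 libraries. In whole rosettes, fewer cells of a type and less RNA per cell cannot be told apart.

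HSP70 proteins bind unfolded stretches of newly made or damaged proteins and release them in cycles driven by ATP. HSP90 proteins take over partly folded clients, among them signalling proteins and receptors, and HOP proteins bridge the HSP70 and HSP90 machines. HSP101 threads aggregated proteins through its central pore and hands them to HSP70, and is required for acquired thermotolerance in Arabidopsis. Some genes of each family are expressed constitutively, and others are known for strong induction by heat through heat shock factors, which bind repeated heat shock elements in promoters.

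Libraries held between 7170796 and 20501572 gene reads. The labels were checked first. MED25 had 32.7 to 34.9 CPM (counts scaled to a common library size with TMM factors) in wild-type control libraries, 26.2 to 38.0 in wild-type hypoxia libraries, 20.7 to 31.2 in med25-1 control libraries and 14.2 to 21.5 in med25-1 hypoxia libraries. By edgeR's quasi-likelihood test it was lower in med25-1 under hypoxia (log2 fold change -0.96, adjusted p = 0.0066), and the difference of -0.45 under control conditions was not called. The hypoxia marker ADH1, alcohol dehydrogenase, had 2.23 to 4.30 CPM in the control libraries and 104 to 245 CPM in the hypoxia libraries. The rosette leaf markers RBCS1A, CAB2, LHCA1 and LHB1B1 summed to at least 14284 CPM in every library, while 5 root markers summed to at most 2.07 CPM, with no read of MYB36 or EXPA7, and 4 floral markers to at most 7.46 CPM.

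A pair of med25-1 libraries stood apart from their groups for the chaperone genes. In control replicate 2 of med25-1, 8 of the 9 genes lay more than 1 log2 unit above the mean of the other libraries of that group, compared with 3.84% of all tested genes. In hypoxia replicate 3 of med25-1, again 8 of the 9 genes lay more than 1 log2 unit above, compared with 7.67% of all tested genes. The exception in both libraries was HSC70-1. Hypoxia replicate 3 was also the shallowest library and gave 8.97% of its reads to its 20 most abundant genes, compared with 13.4% to 15.9% elsewhere. Control replicate 2 of med25-1 had 2.58 CPM of ADH1, within the range of the other control libraries. The results below are therefore given with and without these libraries.

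The 9 genes lie on chromosomes 1, 3, 4 and 5 of the TAIR10 assembly, counted from 1. HSP101 (AT1G74310) spans chr1:27936508-27940369 on the minus strand. HSP90.1 (AT5G52640) spans chr5:21352557-21355147 on the plus strand. HSP90.3 (AT5G56010) at chr5:22681238-22684252 and HSP90.2 (AT5G56030) at chr5:22686473-22689671 are plus-strand neighbours with 2220 bases between them, and HSP90.4 lies 1085 bases before HSP90.3. HSP70 (AT3G12580) spans chr3:3991117-3993886, HSC70-1 (AT5G02500) chr5:553745-556623 and HSC70-3 (AT3G09440) chr3:2902355-2905947, all on the minus strand. FES1A (AT3G09350) spans chr3:2870970-2873332 on the plus strand and HOP3 (AT4G12400) chr4:7338018-7341363 on the minus strand.

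Near-identical copies and overlapping genes limit some of these values. Reads placed at more than 1 locus, which the main counts leave out, made up 5.60% to 8.38% of the reads of HSP90.2 and 6.11% to 10.5% of those of HSP90.3, and at most 0.73% for the other genes. HSP101, HSC70-3, FES1A and HOP3 overlap other annotated genes, with a strand setting of the counting not given in the sources used here. Reads of those genes could be among theirs.

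The 300 bases upstream of each annotated gene start were searched for forms of 2 units of the heat shock element, which is known to be bound by heat shock factors. The motif was written as GAANNTTC or TTCNNGAA, where the units are GAA and its inverse TTC. Each form reads the same on both strands, and overlapping copies of the motif were counted. It was found upstream of 2 of the 9 genes, HSP90.1 and FES1A, compared with 5308 of 27443 windows of the same length before protein-coding genes (19.3%). HSP90.1 held 2 overlapping copies that form 1 element of 3 units, a form found in 0.485% of all windows. For comparison, 8 of 14 genes in a list of small heat shock proteins and the heat-stress-associated protein HSA32 had the motif in their window. Among other cytosolic HSP90 and HSP70 genes it was 2 of 8, with HSC70-2 among them, and none held an element of 3 units. The stretches below are 150 bases long, are read 5′ to 3′ on the strand of the gene from the RefSeq copy of the TAIR10.1 assembly, and show the motif in capitals. They are given for the genes with the motif and for HSP70 and HSC70-1, the induced and constitutive HSP70 genes that lack these letters there.
HSP90.1 stretch at chr5:21352257-21352406, plus strand, bases 300 to 151 before the start.
HSP90.1: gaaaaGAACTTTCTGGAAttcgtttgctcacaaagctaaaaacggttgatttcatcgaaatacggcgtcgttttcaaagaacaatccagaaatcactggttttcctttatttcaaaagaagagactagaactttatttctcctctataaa
FES1A stretch at chr3:2870820-2870969, plus strand, bases 150 to 1 before the start.
FES1A: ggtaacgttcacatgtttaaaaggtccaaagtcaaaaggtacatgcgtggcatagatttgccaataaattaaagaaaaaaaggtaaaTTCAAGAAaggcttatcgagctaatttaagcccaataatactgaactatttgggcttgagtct
HSP70 stretch at chr3:3993887-3994036, minus strand, bases 150 to 1 before the start.
HSP70: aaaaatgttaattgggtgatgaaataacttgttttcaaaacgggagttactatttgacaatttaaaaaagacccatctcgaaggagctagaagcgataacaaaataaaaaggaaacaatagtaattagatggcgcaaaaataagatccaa
HSC70-1 stretch at chr5:556624-556773, minus strand, bases 150 to 1 before the start.
HSC70-1: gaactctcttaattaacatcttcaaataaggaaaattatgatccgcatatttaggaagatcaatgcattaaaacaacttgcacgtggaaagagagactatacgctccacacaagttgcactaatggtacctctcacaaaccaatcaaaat
A match is a description of letters and not a measured binding site, and the absence of a match holds only for these windows. Distances count from the annotated gene start, and where transcription begins was not tested. Near its end the HSP90.1 window holds an ATG with no stop codon in its frame before the annotated start. That start may therefore lie inside the coding sequence, and this window may not be like those of the other genes.

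Levels per length, taken from the deposited RPKM values, placed HSC70-1 far above the others. It had 516 to 588 RPKM in wild-type control libraries, where HSP90.2 followed with 23.7 to 29.1, HSP90.3 with 14.7 to 18.9 and HSC70-3 with 10.1 to 15.1 RPKM. FES1A had 4.24 to 5.54 RPKM. HSP90.1, HSP101 and HSP70, at 1.07 to 1.92, 1.22 to 1.66 and 0.82 to 1.07 RPKM, lay close together with overlapping or adjoining ranges, and HOP3 was lowest at 0.24 to 0.41 RPKM. In med25-1 under hypoxia HSC70-1 was still highest at 527 to 827 RPKM, but HSC70-3 reached 54.2 to 203, HSP90.2 49.7 to 120, HSP90.1 34.9 to 141 and HSP90.3 36.7 to 107 RPKM. HSP90.1 thus stood among the more abundant genes of the set in that group, with a range that overlapped those of HSP90.2 and HSP90.3.

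HSC70-1 supplied 88.7% to 91.1% of the summed RPKM of the 9 genes in wild-type control libraries and 87.0% to 88.5% in wild-type hypoxia libraries. Its share was 90.24%, 76.8% and 90.501% in med25-1 control replicates 1 to 3 and 70.9%, 74.4% and 53.8% in the med25-1 hypoxia replicates. The sum of the other 8 genes was 57.2, 58.6 and 73.2 RPKM in wild-type control libraries and 58.9, 78.0 and 60.5 RPKM in wild-type hypoxia libraries. It was 68.7, 209 and 55.5 RPKM in med25-1 control libraries and 217, 225 and 712 RPKM in med25-1 hypoxia libraries. All 3 mutant hypoxia libraries therefore lay above all wild-type libraries, and the mutant control library that stood apart came close to the lower pair of them.

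**Figure D1:**
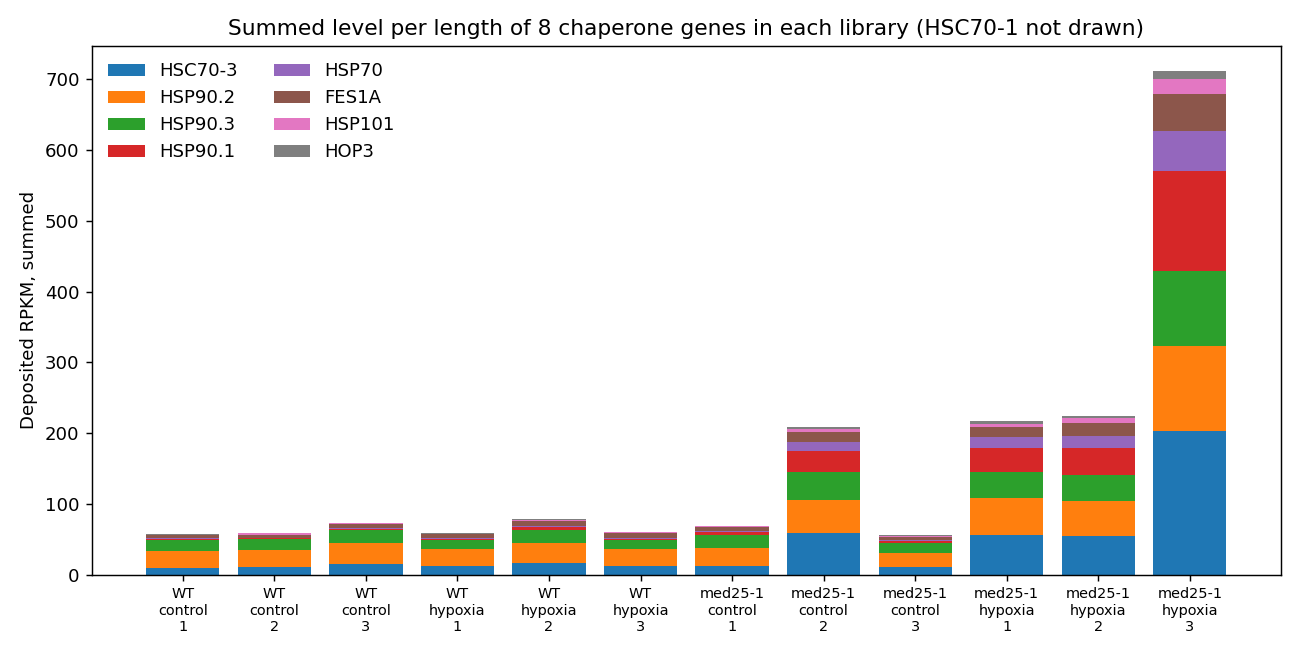
Summed deposited RPKM (vertical axis) of the 8 chaperone genes other than HSC70-1 in each of the 12 libraries, with 1 colour per gene. The sums of the med25-1 hypoxia libraries are 217, 225 and 712 RPKM and those of the 6 wild-type libraries do not exceed 78.0 RPKM.

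The first comparison asked whether 3 h of hypoxia changed chaperone transcripts in wild-type rosettes. None of the 9 genes was called by edgeR at an adjusted p under 0.05, where 6.48% of all tested genes were called (3.05% higher and 3.43% lower), and none had an unadjusted p under 0.05. DESeq2 and limma on RPKM called none of them either. The adjusted p-values ran from 0.498 to 0.988, and the log2 fold changes had a median of 0.22 over the 9 genes and 0.00 over all tested genes. Differences were positive for 5 genes and negative for HSP101, HSP90.2, HSP90.3 and HSC70-1.

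HSP70, the heat-inducible cytosolic HSP70, had 2.30, 2.28 and 2.92 CPM in control and 3.55, 6.71 and 3.39 CPM in hypoxia libraries of wild type. HOP3 had 1.26, 0.70 and 1.22 CPM in control and 1.95, 3.48 and 1.91 CPM in hypoxia. For these 2 genes every hypoxia library lay above every control library, as for 16.3% of all tested genes, with log2 fold changes of 0.83 ± 0.91 (SE) and 1.16 ± 0.79. These SEs also carry the spread of the med25-1 libraries. HOP3 was called only when both libraries that stood apart were left out of the shared fit (1.17, edgeR adjusted p = 0.039). HSC70-1, the abundant constitutive form, had 1685, 1390 and 1590 CPM in control and 1103, 1525 and 1290 CPM in hypoxia, and these ranges overlapped. For the hypoxia markers, in contrast, 6 of 6 genes rose in both genotypes.

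The second comparison set hypoxia against control within med25-1. HSP101 and FES1A rose, so that 2 of the 9 genes were called higher by edgeR, compared with 1.88% of all tested genes called higher, 3.4% called lower and 5.28% called in either direction. All 9 differences were positive, with a median log2 fold change of 1.85 compared with 0.02 over all tested genes, and 8 genes had an unadjusted p under 0.05, as 23.9% of all tested genes did. In 5 genes every hypoxia library lay above every control library, compared with 9.36% of all tested genes.

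HSP101 had 5.55, 15.9 and 5.60 CPM in the med25-1 control libraries and 17.36, 27.7 and 70.4 CPM in the hypoxia libraries. Its log2 fold change was 2.09 ± 0.50 (SE, edgeR adjusted p = 0.0331). The groups did not overlap, although control replicate 2 lay just below the lowest hypoxia library. FES1A, a partner of HSP70 that is needed for thermotolerance, had 9.997, 25.4 and 9.51 CPM in control and 26.3, 35.4 and 98.3 CPM in hypoxia, a log2 fold change of 1.83 ± 0.48 (edgeR adjusted p = 0.0473). Here too the groups did not overlap, and control replicate 2 was within 1 CPM of hypoxia replicate 1.

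These calls turned on single libraries. Without med25-1 control replicate 2, the 8 genes other than HSC70-1 were all called higher (7.61% of all tested genes called), and the median log2 fold change of the 9 genes was 2.77. Without hypoxia replicate 3 of med25-1 none was called, and without both libraries 8 were called again (8.18% of all tested genes called). Leaving out med25-1 control replicate 1 or 3 also left none called. DESeq2 called 6 of the genes (10.6% of all tested genes), limma voom with sample weights called 5 (6.16%), limma on RPKM called none (4.16%), and the fit of the med25-1 libraries alone called none (0.977%).

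HSP90.1 had 8.21, 67.2 and 7.70 CPM in the med25-1 control libraries and 79.2, 88.6 and 309 CPM under hypoxia. Its log2 fold change of 2.52 ± 0.78 was not called (edgeR adjusted p = 0.0828), and it was 4.31 without control replicate 2 (edgeR adjusted p = 0.0038). HSP70 had 4.45, 35.2 and 3.35 CPM in control and 37.4, 42.0 and 142 CPM in hypoxia, with log2 fold changes of 2.37 ± 0.77 (edgeR adjusted p = 0.094) and 4.23 without control replicate 2 (edgeR adjusted p = 0.00327). For both heat-inducible genes control replicate 2 had 8.45 and 9.03 times the mean of the other control libraries. The control and hypoxia libraries nevertheless did not overlap for either gene.

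The third comparison set med25-1 against wild type under control conditions. HSP90.1 was the only member called, with a log2 fold change of 2.92 ± 0.86 (edgeR adjusted p = 0.0383), where 17.1% of all tested genes were called, 8.98% higher and 8.13% lower. Its control libraries had 4.68, 2.45 and 3.67 CPM in wild type and 8.21, 67.2 and 7.70 CPM in med25-1, so that the groups did not overlap. The mean was 3.60 ± 1.12 CPM in wild type (SD, n = 3) and 27.7 ± 34.2 CPM in med25-1 (SD, n = 3). Without med25-1 control replicate 2 the log2 fold change was 1.13 and no longer called (edgeR adjusted p = 0.247). Without both libraries that stood apart it was 1.14 and was called (edgeR adjusted p = 0.0248). The call was also lost without any 1 of the 3 wild-type control libraries or without wild-type hypoxia replicate 3, with edgeR adjusted p from 0.053 to 0.123, and by limma on RPKM and the replicate block. Without hypoxia replicate 3 of med25-1, 3 members were called in this comparison, where 27.5% of all tested genes were.

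The other 8 genes were not called between the genotypes under control conditions. HSP70 and HOP3 had log2 fold changes of 2.48 ± 0.87 (edgeR adjusted p = 0.0693) and 1.94 ± 0.75 (edgeR adjusted p = 0.0989), with every med25-1 library above every wild-type library. With HSP90.1 this made 3 genes with non-overlapping groups, compared with 23.1% of all tested genes. HSC70-1 differed by 0.10 ± 0.19. All 9 differences were positive with a median of 0.65, but without med25-1 control replicate 2 the median was 0.02 and the values of HSP101, HSP90.2, HSP90.3 and HSC70-3 were -0.03, -0.26, -0.03 and -0.02.

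The fourth comparison set the genotypes against each other under hypoxia and gave the largest counts. Of the 9 genes, 8 were called higher in med25-1 by edgeR, compared with 12% of all tested genes called higher, 9.62% called lower and 21.6% called in either direction. The median log2 fold change was 2.78 over the 9 genes and -0.05 over all tested genes. For the same 8 genes every med25-1 library lay above every wild-type library, as for 17.3% of all tested genes. HSC70-1 was the exception on both counts. The 9 genes were chosen with earlier results of these data known, so these shares do not measure how unusual the set is.

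**Figure D2:**
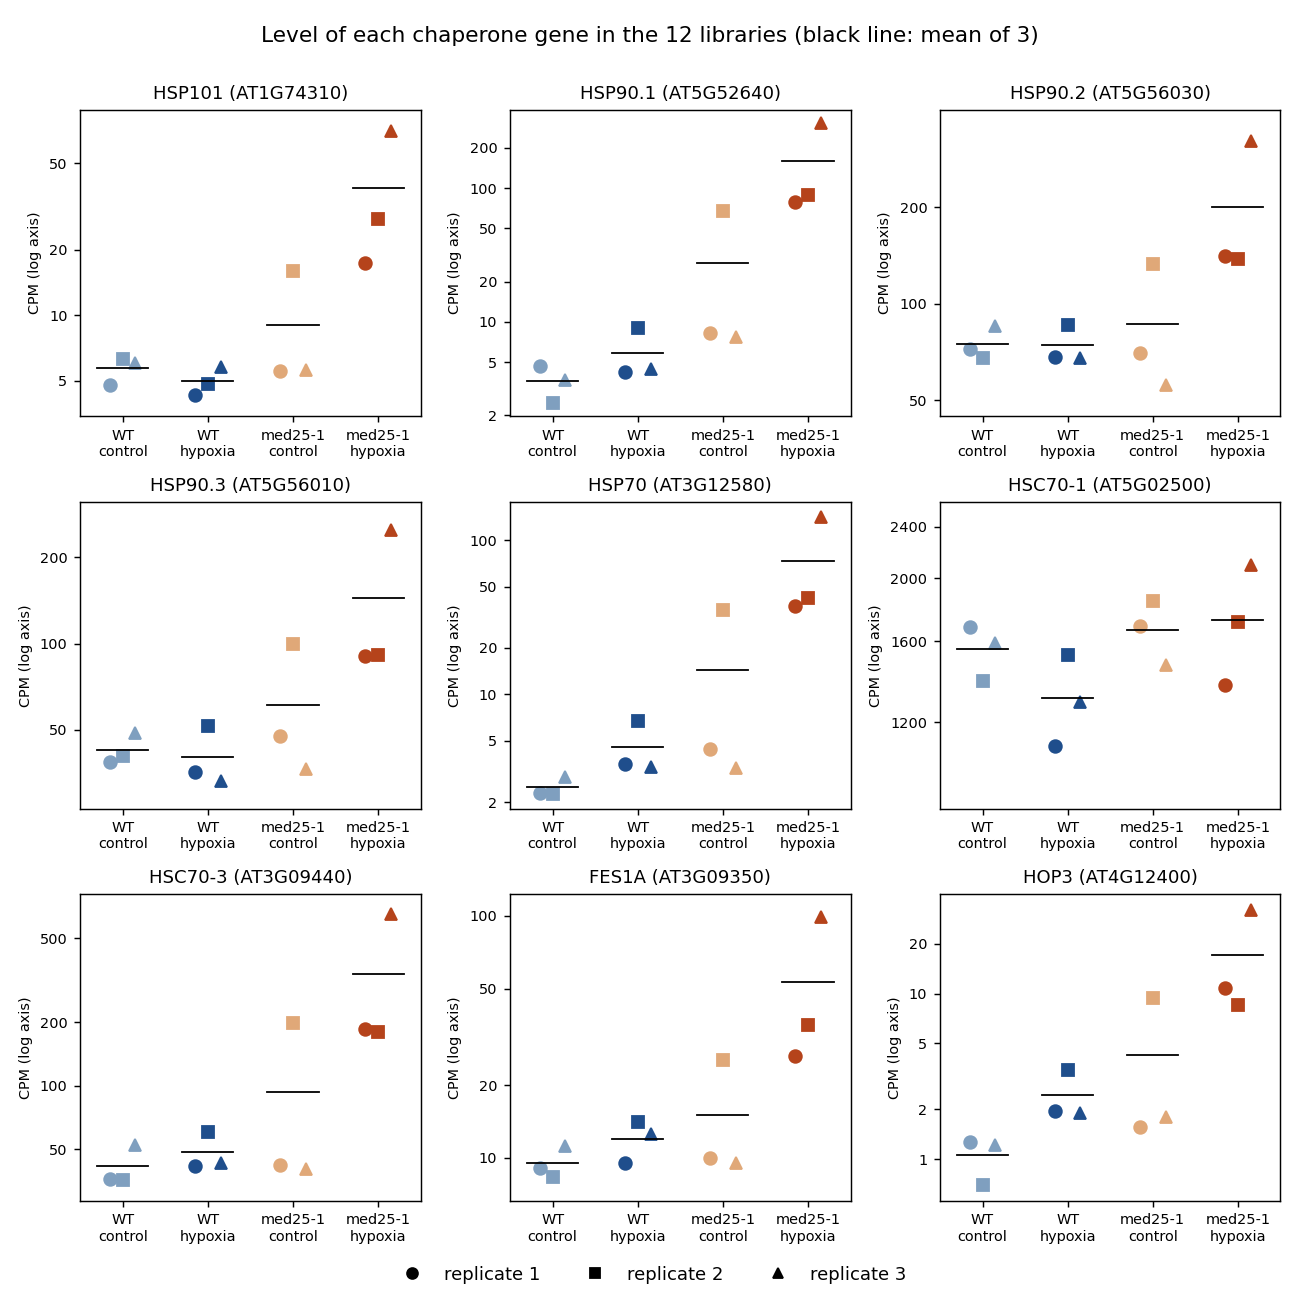
Level of each of the 9 genes in CPM (vertical axis, log scale) in the 12 libraries, with symbols for replicates 1 to 3 and a black line at the group mean. The med25-1 hypoxia libraries lie above all wild-type libraries for the 8 genes other than HSC70-1, and med25-1 control replicate 2 lies above the other control libraries.

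Among the disaggregase and HSP90 genes, HSP101 had 4.27, 4.81 and 5.79 CPM in wild-type and 17.36, 27.7 and 70.4 CPM in med25-1 hypoxia libraries. It was 7.65-fold higher in med25-1 (log2 2.94 ± 0.52, edgeR adjusted p = 0.00275), and ranked 449th of 18212 genes by log2 fold change. HSP90.1, the heat-inducible cytosolic HSP90, had 4.20, 9.04 and 4.45 CPM in wild type and 79.2, 88.6 and 309 CPM in med25-1. Its difference was the largest of the 9 at 27.0-fold (log2 4.76 ± 0.89, edgeR adjusted p = 0.00364), and its lowest mutant library exceeded its highest wild-type library several times over.

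HSP90.2 and HSP90.3, which are expressed constitutively, had smaller differences from a higher base. HSP90.2 had 68.3, 86.0 and 67.9 CPM in wild type and 141, 138 and 323 CPM in med25-1 (log2 1.44 ± 0.36, edgeR adjusted p = 0.0152). HSP90.3 had 35.6, 51.6 and 33.1 CPM in wild type and 90.305, 91.2 and 250.4 CPM in med25-1 (log2 1.84 ± 0.43, edgeR adjusted p = 0.0118). Both were separated in all libraries. The call of HSP90.2 was lost without wild-type replicate 1 or 3 or med25-1 replicate 3 (edgeR adjusted p 0.054, 0.0605 and 0.051), and the log2 fold change without the last was 0.92. The call of HSP90.3 was lost without wild-type replicate 3 (edgeR adjusted p = 0.0534).

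Among the HSP70 genes, HSP70 had 3.55, 6.71 and 3.39 CPM in wild type and 37.4, 42.0 and 142 CPM in med25-1 under hypoxia. It was 16.2-fold higher in med25-1 (log2 4.01 ± 0.86, edgeR adjusted p = 0.00718). HSC70-3, another cytosolic HSP70, had 41.8, 60.6 and 43.1 CPM in wild type and 185, 179 and 649 CPM in med25-1, and was 6.95-fold higher (log2 2.80 ± 0.65, edgeR adjusted p = 0.0111). HSC70-1 had 1103, 1525 and 1290 CPM in wild type and 1370, 1710 and 2100 CPM in med25-1. These groups overlapped, and the log2 fold change of 0.40 ± 0.19 was not called (edgeR adjusted p = 0.146).

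Among the co-chaperones, FES1A had 9.48, 14.0 and 12.6 CPM in wild type and 26.3, 35.4 and 98.3 CPM in med25-1 under hypoxia (log2 2.14 ± 0.49, edgeR adjusted p = 0.00997). HOP3, the adaptor between HSP70 and HSP90, had 1.95, 3.48 and 1.91 CPM in wild type and 10.8, 8.55 and 32.0 CPM in med25-1 (log2 2.78 ± 0.69, edgeR adjusted p = 0.0151). Neither gene's groups overlapped. The call of HOP3 was lost without wild-type replicate 1 or 3 or med25-1 replicate 3 (edgeR adjusted p 0.057, 0.0634 and 0.0545).

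Hypoxia replicate 3 of med25-1 had 2.31 to 3.68 times the mean of the other libraries of its group for the 8 called genes. Without it 6 of the 8 genes were called, and 14.7% of all tested genes were. The log2 fold changes were then 2.18 for HSP101, 3.84 for HSP90.1, 1.18 for HSP90.3 and 3.14 for HSP70. They were 1.91 for HSC70-3, 1.36 for FES1A and 1.98 for HOP3. The 8 differences thus kept their direction at a smaller size. Without both libraries that stood apart, all 8 genes were called and 15.4% of all tested genes were. The summed CPM of the 4 leaf markers also differed between these groups, with 28143 to 31741 in wild-type and 14284 to 26559 in med25-1 hypoxia libraries. The lowest sum was that of hypoxia replicate 3 of med25-1. For each marker that library had 0.46 to 0.67 times the mean of the other libraries of its group. The part of these differences in the chaperone results was not tested.

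**Figure D3:**
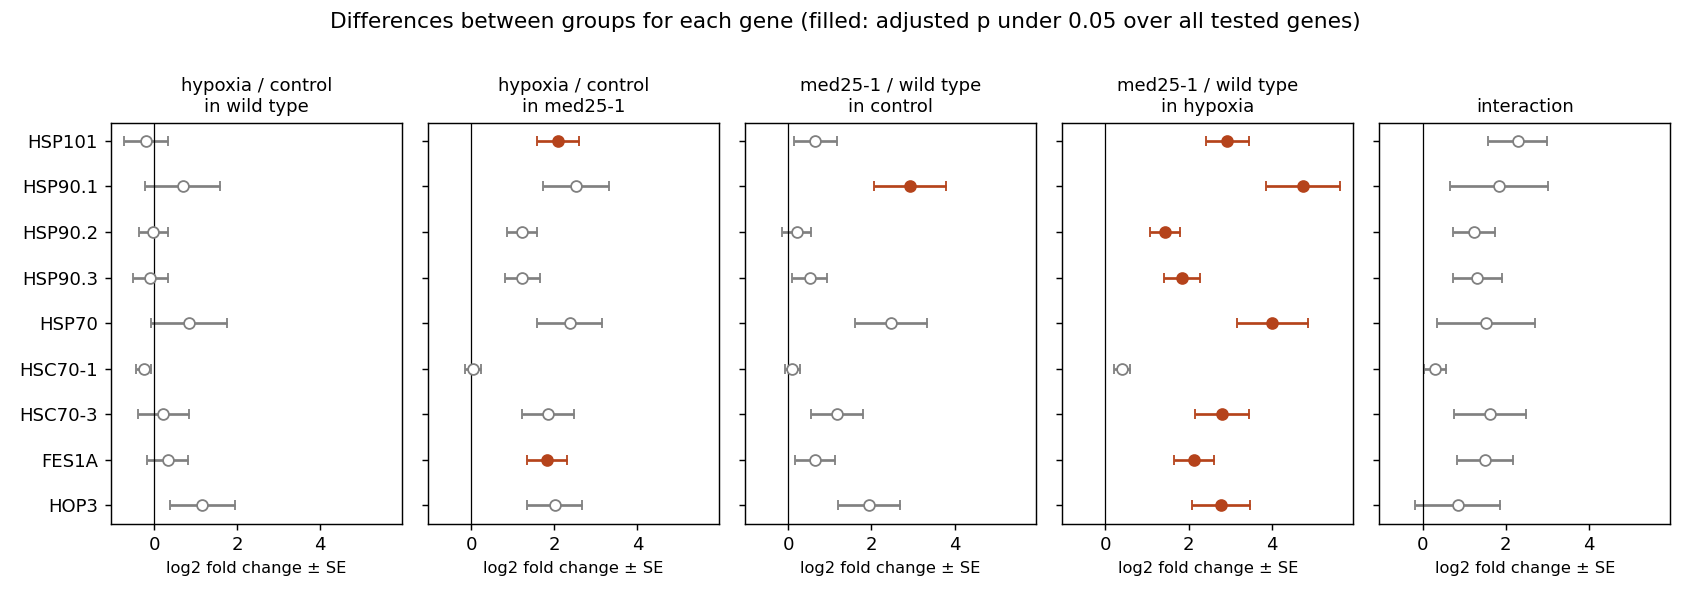
Log2 fold change with its SE (horizontal axis) for each of the 9 genes in the 4 group comparisons and the interaction. Filled points mark an adjusted p under 0.05 over all tested genes, which 8 genes reach for med25-1 against wild type under hypoxia and none reaches for hypoxia in wild type or the interaction.

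Whether the response to hypoxia differed between the genotypes was tested as an interaction. All 9 interaction terms were positive, with a median of 1.5 on the log2 scale, but edgeR called none of the 9 genes and 0% of all tested genes. At an unadjusted p under 0.05 there were 4 members, HSP101, HSP90.2, HSP90.3 and FES1A, and 910 genes in all, which is 5% of those tested. The term was 2.28 ± 0.72 for HSP101 (edgeR adjusted p = 0.929) and 1.84 ± 1.17 for HSP90.1 (edgeR adjusted p = 0.93). DESeq2 called 16 genes and limma on RPKM 2, with no member among them. The median term was 2.15 without med25-1 control replicate 2, 0.72 without hypoxia replicate 3 and 1.39 without both. No member was called in these fits either, and HSP101 came closest without both libraries (2.25, edgeR adjusted p = 0.0756). A different response to hypoxia in med25-1 was therefore not shown for these genes, although the groups differed under hypoxia. The comparisons share groups, so their counts are not independent of each other.

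The 8 genes other than HSC70-1 followed one another across the 12 libraries. Pearson's r of log2 CPM was 0.904 to 0.990 over their 28 pairs, with a median of 0.965, and 0.526 to 0.709 between HSC70-1 and each of the others. These values describe libraries that share group means and the libraries that stood apart. Outside the set, the genes most like HSP101 over the 12 libraries were AT1G72700 and the mitochondrial HSP70 gene mtHSC70-2 (r = 0.974 each), followed by CNX1, GA2OX2 and AT3G51980 (0.966 each). HSP70 was most like DAR6 and NUDT5 (0.975 each), then J2, ROF2 and HYH (0.972 each). HSP90.2 was most like mtHSC70-2 (0.981), then AT4G28480, AT3G17340, THY-2 and AT3G05050 (0.961 to 0.967). For HSC70-1 they were AT2G45540, AT3G58110, AT2G44530, AT5G58100 and AT1G07135 (0.943 to 0.961), none of which was listed for the other 3 genes.

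Other genes of the same families were counted in the same way. The list counts below stand beside these shares of all tested genes. Between the genotypes, 12% were called higher and 9.62% lower in med25-1 under hypoxia, and 8.98% and 8.13% under control conditions. For hypoxia, 1.88% were called higher and 3.4% lower within med25-1, and 3.05% and 3.43% in wild type. Of 8 other cytosolic HSP90 and HSP70 genes, 7 could be tested, and only HSC70-2 was called, in both genotype comparisons. HSC70-2, whose gene lies 917 bases from that of HSC70-1, had 4.34, 10.2 and 5.29 CPM in wild-type and 193, 233 and 819 CPM in med25-1 hypoxia libraries. It was higher in med25-1 by 5.98 ± 0.96 on the log2 scale (edgeR adjusted p = 0.00149). Under control conditions it had 4.16, 4.29 and 9.25 CPM in wild type and 32.4, 214 and 24.5 CPM in med25-1 (log2 3.90 ± 0.88, edgeR adjusted p = 0.0117). Neither comparison had overlapping groups. HSP70B, also known for induction by heat, and HSP70-15 were not called under hypoxia, and the median log2 fold change of the 7 genes was 0.22.

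Of 12 chaperones of the endoplasmic reticulum, mitochondria and chloroplasts, 6 were called higher in med25-1 under hypoxia and none lower, with a median log2 fold change of 0.60. BIP3, the stress-inducible HSP70 of the endoplasmic reticulum, had 2 reads over the wild-type libraries of each condition, at most 0.074 CPM in any, and 13.3, 26.9 and 99.8 CPM in med25-1 hypoxia libraries (edgeR adjusted p = 0.000201). It also rose from control to hypoxia within med25-1, by 2.87 ± 0.61 on the log2 scale (edgeR adjusted p = 0.0199). HSP90.7, the HSP90 of that compartment, was higher in med25-1 under hypoxia by 2.51 ± 0.37 (edgeR adjusted p = 0.000942) and BIP2 by 3.30 ± 0.53 (edgeR adjusted p = 0.00154). None of the 12 was called for hypoxia in wild type. Reads placed at more than 1 locus were 10.2% of those of BIP1, 10.9% of BIP2 and 14.0% of mtHSC70-2, and the counts leave these out. Under control conditions BIP3 and BIP2 were called higher in med25-1, and the chloroplast HSP90 gene HSP90.5 was lower by 0.72 ± 0.17 (log2 -0.72, edgeR adjusted p = 0.0142).

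Among 16 further co-chaperones, 6 were called higher and none lower in med25-1 under hypoxia, with a median log2 fold change of 0.41. ROF2, an immunophilin that binds HSP90, was higher by 4.34 ± 0.72 (edgeR adjusted p = 0.00187), SGT1A, an HSP90 partner in immune receptor function, by 1.09 ± 0.23 (edgeR adjusted p = 0.00627) and CHIP, a chaperone-associated ubiquitin ligase, by 0.81 ± 0.18 (edgeR adjusted p = 0.00765). The relatives of the members, HOP1, HOP2, FES1B and FES1C, were not called in any of the 4 comparisons. Within med25-1, ROF2 was the only gene of the list called for hypoxia, at 2.44 ± 0.63 (edgeR adjusted p = 0.0459), and none was called in wild type. Under control conditions 4 were called higher in med25-1, with CHIP, SGT1B and SGT1A having the smallest p.

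Of 13 tested genes for heat shock factors and the co-activator MBF1C, 8 were called higher and 1 lower in med25-1 under hypoxia, with a median log2 fold change of 1.13. HSFB1 was higher by 3.56 ± 0.48 (edgeR adjusted p = 0.000513), HSFA8 by 1.74 ± 0.29 (edgeR adjusted p = 0.00189) and MBF1C by 1.67 ± 0.29 (edgeR adjusted p = 0.00218). HSFA3 was the gene called lower, at -1.14 ± 0.25 (edgeR adjusted p = 0.0086). Within med25-1, MBF1C and HSFA2 were called higher under hypoxia and HSFA3 and HSFA7A lower, and none was called in wild type. Under control conditions 4 were called higher in med25-1, HSFA8, HSFB1 and HSFA4A with the smallest p, and HSFA3 lower.

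The last list held small heat shock protein genes, which encode holdases that bind unfolding proteins ahead of HSP70 and HSP101, and HSA32, which is not of that family. Of its 14 genes 8 could be tested. In wild type HSP17.6A and HSP17.6C-CI rose under hypoxia (edgeR adjusted p 0.0111 and 0.0283), from 3 and 0 reads over the control libraries to 61 and 33 reads over the hypoxia libraries. With so few control reads no fold is given for them. Within med25-1 HSP17.6A rose as well, by 3.02 ± 0.60 (edgeR adjusted p = 0.0137). Between the genotypes under hypoxia, HSP17.8 and HSP17.6A-CI were higher in med25-1 by 3.85 ± 0.90 and 2.43 ± 0.66 (edgeR adjusted p 0.0111 and 0.0227), and HSP18.2 and HSA32 were lower, HSP18.2 with a log2 fold change of -1.85 ± 0.51 (edgeR adjusted p = 0.0243). Under control conditions HSP17.8 was called higher and HSP18.2 lower in med25-1. HSP17.8 had 3 reads over the wild-type control libraries, and 0.35, 5.78 and 0.95 CPM in med25-1 control replicates 1 to 3. In this comparison no gene of the list was called higher without med25-1 control replicate 2, and 4 were without med25-1 hypoxia replicate 3. None of the 8 tested genes of this list had reads placed at more than 1 locus.

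Without hypoxia replicate 3 of med25-1, the genes called higher in med25-1 under hypoxia numbered 1 for the other cytosolic genes, 5 for the organelle chaperones, 5 for the co-chaperones, 7 for the heat shock factors with MBF1C and 1 for the small heat shock proteins with HSA32. In these fits 1 heat shock factor gene and none of the last list were called lower. Without med25-1 control replicate 2, the genes called higher for hypoxia within med25-1 numbered 1, 4, 4, 2 and 5 for these lists in the same order, and 2 heat shock factor genes were called lower. Without that library the genotype comparison under control conditions called higher 1 other cytosolic gene, 1 organelle gene, 1 co-chaperone gene and 4 heat shock factor genes. It called lower 1 organelle gene, 1 gene of the last list and no heat shock factor gene. With all libraries, the same comparisons called higher 12%, 1.88% and 8.98% of all tested genes, in the order given here. The shares called in the first and second without the library are given with the 9 genes above. Those shares take both directions together, so they are not like for like with counts of genes called higher. The share for the last comparison without the library is not given, so its list counts cannot be set against all tested genes.

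**Figure D4:**
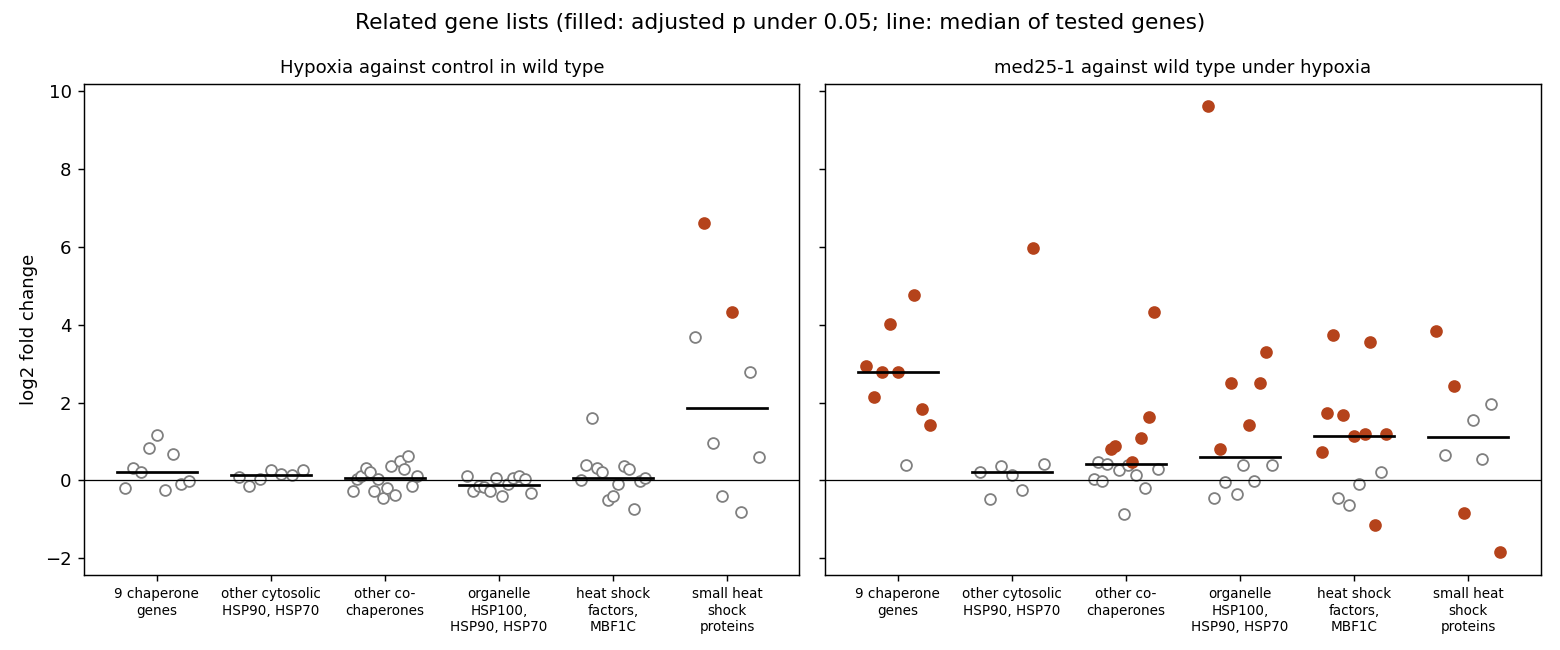
Log2 fold change (vertical axis) of each tested gene in the 9-gene set and 5 related lists, for hypoxia against control in wild type (left) and med25-1 against wild type under hypoxia (right). Filled points mark an adjusted p under 0.05 and black lines the median, which for the 9 genes is 0.22 on the left and 2.78 on the right. The highest point on the right (BIP3) and both filled points on the left (HSP17.6C-CI, HSP17.6A) rest on at most 3 reads in the lower group, so their height is set by the fit.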

How the data were processed

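Poly(A) RNA from whole rosettes was sequenced from stranded libraries, according to the labels' protocols, and groups and replicate numbers came from the titles and treatment labels. Reads were placed on TAIR10, a build named in the submitters' processing notes, with mapping software not given in the sources used here. Of the 293 columns of the deposited table, 77 were used and 215 further columns were not used. The counts tested were uniquely placed gene reads, exon plus intron, per the file headers, and the authors' expression values equalled them in all 12 libraries. The authors also deposited total gene reads, exon reads and RPKM per the file headers. The table's start positions count from 0 and are printed counting from 1. Of 32909 features matched to the RefSeq TAIR10.1 annotation, 32908 had the same start and end. The file's other values, such as gene length, were used as deposited.

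These counts entered the quasi-likelihood test of edgeR 4.0.16 (R 4.3.3) after filterByExpr and TMM scaling. A single fit covered all 12 libraries, with the 4 group means as coefficients (common dispersion 0.0436). Each of 5 two-sided contrasts was adjusted by Benjamini-Hochberg over 18212 genes, and a gene was called at an adjusted p under 0.05. SEs were obtained from the F statistic and are approximate. CPM used TMM library sizes and log2 CPM a prior count of 2. Intron reads were 1.59% to 2.53% of gene reads. Replicates differed by more than sampling noise (chi-square per degree of freedom 4.17 to 81.9). On simulated counts for hypoxia in wild type over 18212 genes, the test found 44% of the 2-fold changes and 83% of the 4-fold ones, with 8 false calls. The changed genes were drawn at random from all tested genes. These shares need not hold for genes with a spread as wide as that of HSP90.1 or HSP70. Alternatives used DESeq2 1.42.0, limma 3.58.1 on log2(RPKM + 1) and limma voom, other read classes, no filter, a replicate block, only the groups compared, and each library left out. 2 alternatives, leaving out both libraries that stood apart and a replicate block on the hypoxia groups alone, were chosen after seeing the data.

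The replicate numbers were checked for pairing. Same-numbered deviations correlated at 0.49, 0.11 and 0.21 between the hypoxia groups, and at values from -0.31 to 0.36 in the other comparisons. These values do not settle whether the numbers pair samples, and the sample labels used here do not state it. The hypoxia groups were also fitted as if paired, with the blocked count in the closing section.

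The members and lists were chosen with earlier results of these data known. Named genes are all 9 members, MED25, ADH1, up to 3 genes of each related list with the smallest p per comparison, called or not, and the 5 genes most correlated with each of HSP101, HSP70, HSP90.2 and HSC70-1. HOP1, HOP2, FES1B, FES1C, HSFA2, HSA32, BIP1, mtHSC70-2 and, under hypoxia, HSFA3 were named after their values were seen, and HSP90.4 as a gene neighbour.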

Additional observations from a re-analysis of the deposited data

How the results depend on the processing

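For hypoxia within med25-1, where 2 members were called, DESeq2 called 6 (10.6% of all tested genes), limma voom with sample weights 5 (6.16%), the replicate block 1 (4.39%), and limma on log2(RPKM + 1) and the fit of only the groups compared 0 (4.16% and 0.977%). Leaving out 1 library at a time gave 0 to 8, and leaving out both libraries that stood apart gave 8. For med25-1 against wild type under control conditions, where 1 member was called, DESeq2 called 3 (21.5%), the replicate block and limma on RPKM 0 (16.9% and 12.2%), and leaving out 1 library gave 0 to 3. For hypoxia in wild type, leaving out both libraries called 1 member (11.8%). For med25-1 against wild type under hypoxia, the 8 calls were 5 to 8 when 1 library was left out, with 5 without wild-type hypoxia replicate 3, and were 8 under each other alternative. With the replicate block on the hypoxia groups alone, which treats same-numbered samples as pairs, 8 members were called, as without it. Such a pairing is not stated in the sample labels used here. No alternative that could be fitted called a member for the interaction.

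Some uncalled values changed sign. For hypoxia in wild type, leaving out 1 library gave -0.14 to 0.083 for HSP90.2 and -0.31 to 0.034 for HSP90.3 on the log2 scale. For hypoxia within med25-1, HSC70-1 was -0.016 by limma voom and -0.11 to 0.19 when 1 library was left out. Between the genotypes under control conditions, leaving out 1 library gave -0.029 to 0.93 for HSP101, -0.26 to 0.46 for HSP90.2, -0.025 to 0.81 for HSP90.3 and -0.015 to 1.56 for HSC70-3, with the lowest values without med25-1 control replicate 2. Leaving out both libraries gave -0.017, -0.25, -0.014 and -0.0047 for the same genes. The cause was not tested. Over all single-gene comparisons and alternatives, 867 kept direction and side of the threshold, 35 lost a call, 27 gained one and 16 changed sign. Under hypoxia, 21.6% of all tested genes differed between the genotypes without the replicate block and 20.9% with it. HOP3 had the lowest levels of the 9 genes, with 0.70 to 1.26 CPM in wild-type control libraries.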
